A study of Mus musculus with 2 samples.

Results

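A set of 10 genes of the spindle assembly checkpoint and the chromosomal passenger complex was followed in NIH3T3 cells depleted of CCR4b. They are Mad2l1, Mad1l1, Bub1, Bub1b, Bub3, Ttk, Cdc20, Aurkb, Birc5 and Incenp, chosen by function with earlier results of these data known. Every probe set annotated to 1 of these symbols was taken. This gave 10 genes of 18194 with a probe set of their own, and 26 probe sets of 45101. NIH3T3 is an immortalised mouse embryonic fibroblast line. The control RNAi culture and the CCR4b RNAi culture were both infected with a retrovirus that expresses a short hairpin RNA, and both were grown in serum-containing DMEM. CCR4b, encoded by Cnot6l, is one of the enzymes with which CCR4-NOT removes poly(A) tails from mRNAs. Total RNA was hybridised to 1 Affymetrix GeneChip Mouse Genome array per culture, so there is 1 array in each group, no replicate error and no test. The sources used here do not give the hairpin sequences, the number of hairpins or the time after infection.

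The spindle assembly checkpoint holds a cell in mitosis until every kinetochore has been captured by spindle microtubules. The kinase TTK (also called MPS1) and the kinase BUB1 act at unattached kinetochores, where MAD1 turns MAD2 into the form that joins BUBR1, BUB3 and CDC20 in the mitotic checkpoint complex. That complex inhibits the anaphase promoting complex (APC/C), the ubiquitin ligase that CDC20 activates to degrade securin and cyclin B. The chromosomal passenger complex consists of the kinase Aurora B, the scaffold INCENP, survivin and borealin, destabilises wrong attachments and later works at the central spindle. In dividing cells the mRNAs of many of these proteins peak in G2 and mitosis.

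Of the 10 genes, 8 were at least 2-fold lower after CCR4b RNAi, with Mad2l1 and Aurkb 3.84-fold lower and Incenp, at 2.21-fold, closest to the threshold. Bub3 and Mad1l1 were the others, at 1.20-fold and 1.08-fold lower. All 10 genes were above the signal floor on both arrays. The floor, 8.07 units, is the median of all values of both arrays and stands in for the detection calls. The median log2 ratio of CCR4b RNAi over control RNAi was -1.51 for the 10 genes, a 2.85-fold lower signal, and -0.070 for all 11915 measured genes. At least 2-fold lower were 4.48% of all measured genes and at least 2-fold higher 3.74%, against 8 and 0 of these 10. Because the genes were chosen with earlier results of these data known, this contrast is not independent of that choice. In total RNA of a whole culture, fewer cells in mitosis and less of a transcript in each cell cannot be told apart.

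The targeted gene Cnot6l was lower on all 4 probe sets that read it. The brightest went from 102 units in the control to 43.0 units after CCR4b RNAi, 2.38-fold lower. The probe sets at 22.4 and 18.2 units in the control fell below the floor after CCR4b RNAi and give only bounds. As a check of the cell line, 9 of 9 fibroblast markers were above the floor on both arrays, and their summed signal was 17174 units in the control and 19338 units after CCR4b RNAi. Within that sum the directions differed. Of the 9 markers 2 were lower, with Thy1 at 221 and 130 units, and the rest were about equal or higher, with Col1a1 at 942 and 1429 units. Of 4 epithelial markers 1 was measured (Epcam, 19.4 and 29.5 units), of 5 myeloid markers 4 (62.2 and 58.9 units in all), and of 3 endothelial markers 0. The myeloid sums hide opposite differences in dim signals, with Cd68 at 24.0 and 9.42 units and Lyz2 at 6.17 and 22.9 units. Krt8, Krt18, Cdh1, Ptprc, Pecam1, Cdh5 and Kdr were below the floor on both arrays. The 3' to 5' signal ratio, a measure of RNA integrity, was 1.35 and 1.46 for Actb and 0.824 and 0.819 for Gapdh in the control and after CCR4b RNAi. What part these marker and RNA integrity values have in the differences was not tested.

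Among the kinases that start the signal, Ttk, the upstream kinase of the checkpoint, read 51.9 units in the control and 14.9 units after CCR4b RNAi on its brighter probe set, 3.49-fold lower. Its dimmer probe set read 11.3 and 3.75 units, so the second value lay below the floor and the difference is at least 1.40-fold lower. Both Ttk probe sets were thus lower in the depleted culture. Bub1, the kinase that marks centromeric chromatin for the passenger complex, read 121.7 and 33.8 units, 3.60-fold lower. Its second probe set stayed near the floor, at 4.80 units in the control and 10.4 units after CCR4b RNAi, and so ran the other way from a signal that the control array did not bring above the floor. The call for Bub1 rests on the bright probe set, and with the median over both the log2 ratio was -0.74.

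Mad1l1 encodes MAD1, the protein that recruits and converts MAD2. It was dim on both arrays, with 13.7 and 12.7 units on 1 probe set and values under the floor on the other (1.19 and 0.272 units). Its log2 ratio of -0.11 lay within the robust SD of 0.64 (a scaled median absolute deviation) among the 1192 genes of like signal. This signal is too close to the floor for a 2-fold difference downward to be seen in full. Mad2l1 encodes MAD2, the partner of MAD1 and the diffusible inhibitor of CDC20. The 1 Mad2l1 probe set gave 732 units in the control and 190.5 units after CCR4b RNAi, which placed Mad2l1 at rank 22 from the lowest log2 ratio among 11915 genes. The partners thus had log2 ratios of -1.94 (Mad2l1) and -0.11 (Mad1l1).

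The other parts of the mitotic checkpoint complex were unequal. Cdc20, the activator of the APC/C and the target of the checkpoint, was lower on all of its 3 probe sets, of which the brightest read 1069 units in the control and 383.8 units after CCR4b RNAi. The others read 593 and 232 units, and 75.4 and 16.8 units. The smallest of these differences was 2.55-fold and the largest 4.49-fold. Bub1b, which encodes the CDC20-binding protein BUBR1, read 182.7 and 71.8 units on its brightest probe set and 127 and 36.4 units on the next. Both were over 2-fold lower, and the dimmest, at 1.25 and 5.09 units, was below the floor on both arrays. Bub3 encodes the WD-repeat protein that brings BUB1 and BUBR1 to kinetochores. It read 662 units in the control and 553.5 units after CCR4b RNAi on its brightest probe set and 53.8 and 44.5 units on the next. These gave log2 ratios of -0.26 and -0.27. The value of the brightest lay inside the spread of genes of like signal, whose median was -0.17 and robust SD 0.36. The 3 remaining Bub3 probe sets each crossed the floor, 1 of them upward (7.04 and 11.3 units). Bub3 was thus well above the floor, unlike Mad1l1, and its signal differed little between the cultures.

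The passenger complex genes were lower together. Aurkb, the catalytic subunit, read 116 units in the control and 30.4 units after CCR4b RNAi on its brighter probe set and 73.6 and 23.0 units on the other. Both Aurkb probe sets have identifiers that mark possible cross-hybridisation (_x_at and _s_at), so no value of this gene is free of that limit. Birc5 encodes survivin, which docks the complex on centromeric histone H3. It has 1 probe set, with 455 and 155.5 units, 2.93-fold lower. Incenp, the scaffold that activates Aurora B, read 519 and 235 units on its brightest probe set and 88.4 and 43.4 units on the next. These are 2.21-fold and 2.03-fold lower, and Incenp passed below the 2-fold threshold with quantile normalization (log2 ratio -0.98) and with a loess correction (-0.96). A dimmer Incenp probe set went from 16.8 units to below the floor. The next read 7.11 and 8.20 units and the last, below the floor on both arrays, 0.817 and 0.449 units. Cdca8, which encodes borealin, the remaining subunit, belonged to a companion list. It read 419 and 132 units and was 3.17-fold lower on its brightest of 3 probe sets, all 3 of which were over 2-fold lower.

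**Figure D1:**
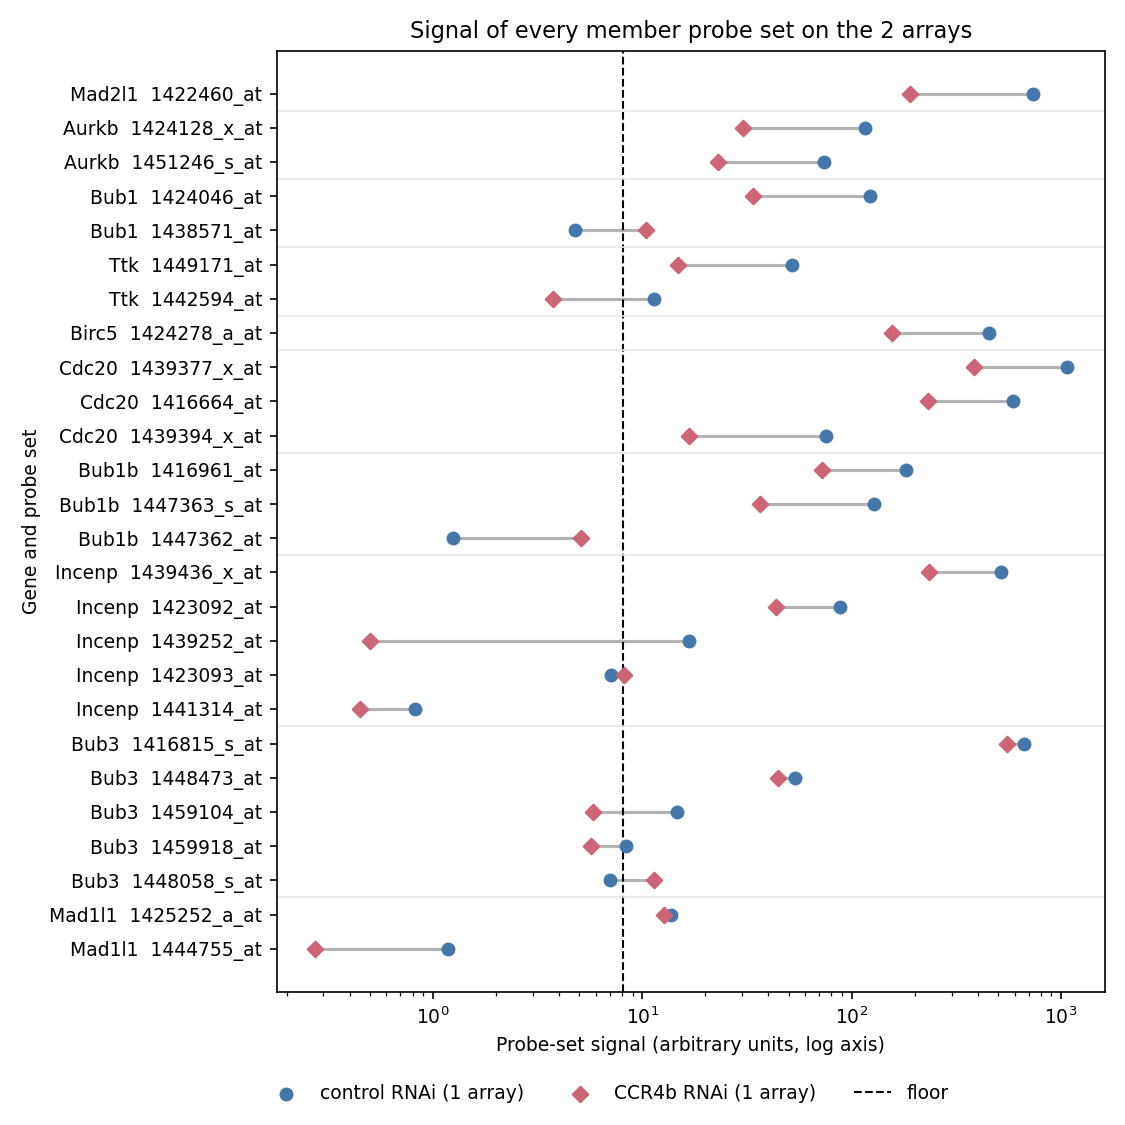
Signal of each of the 26 probe sets (rows, grouped by gene) on the control RNAi array (blue circles) and the CCR4b RNAi array (red diamonds), in arbitrary units on a log axis, with the floor of 8.07 units as a dashed line. All 16 probe sets that pass the floor on both arrays have the red diamond to the left, and the probe sets with it to the right lie near or below the floor.

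Across probe sets, 16 of the 26 passed the floor on both arrays, 7 on 1 array and 3 on neither. All 16 were lower after CCR4b RNAi, where 54.8% of the 19759 such probe sets of the whole array were. At least 2-fold lower were 13 of the 16, against 4.29% of all such probe sets. The other 3 were both bright Bub3 probe sets and that of Mad1l1. The brightest probe sets of Cdc20, Incenp and Bub3 are of the kinds open to cross-hybridisation, and the brightest of the others gave log2 ratios of -1.35, -1.02 and -0.27 for these genes. Probe sets of 1 gene share its transcript and are not replicates. The 7 probe sets that crossed the floor were divided, with 4 lower and 3 higher.

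The spread between probe sets of a gene gives the only measure of error within these arrays. Over the 4550 genes with 2 or more probe sets clear of the floor, its robust SD was 0.30 log2 units per probe set, or 0.42 for a difference between 2 of them. It holds no variation between cultures. In order of log2 ratio the genes ran from Mad2l1 (-1.94) and Aurkb (-1.94) through Bub1 (-1.85), Ttk (-1.80), Birc5 (-1.55), Cdc20 (-1.48) and Bub1b (-1.35) to Incenp (-1.14), then Bub3 (-0.26) and Mad1l1 (-0.11). The gap between Incenp and Bub3 was 0.88 log2 units, and each other gap between neighbours was at most 0.25, under the 0.42 of a difference. The 8 lower genes spanned 0.80 log2 units from first to last.

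**Figure D2:**
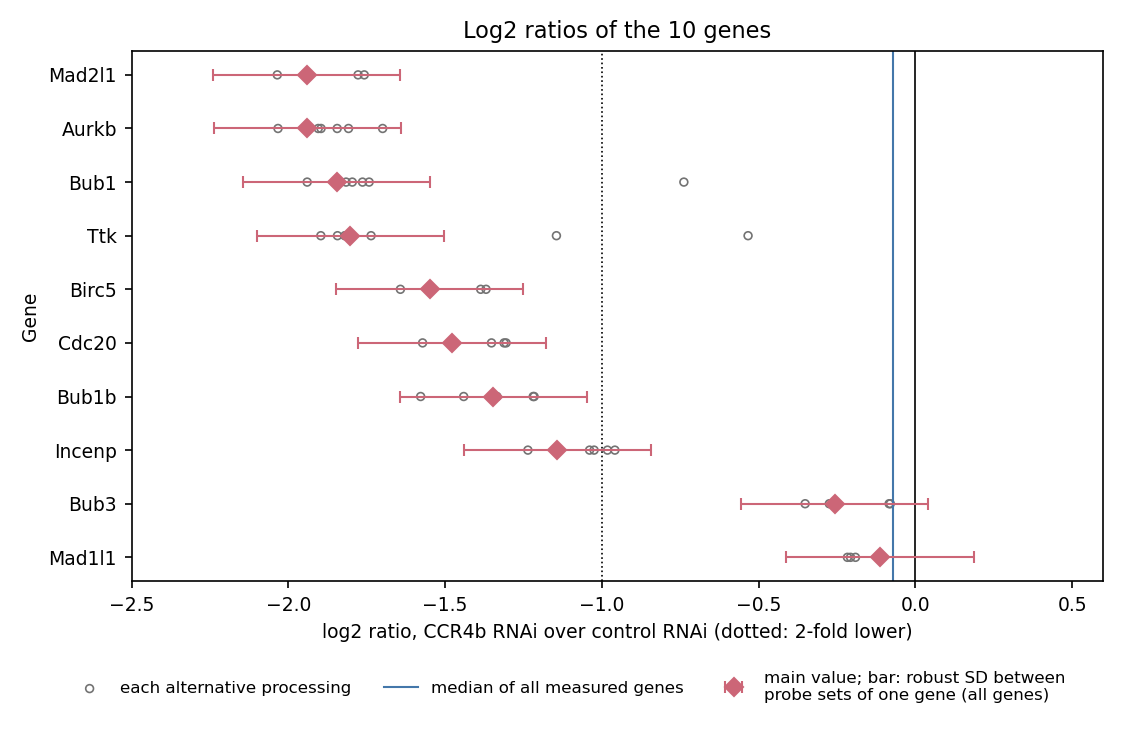
Log2 ratio of CCR4b RNAi over control RNAi for each gene (red diamonds; bars, 0.30 log2 units either way, the robust SD between probe sets of one gene) with each alternative processing (open circles), the median of all measured genes (blue line) and the 2-fold threshold (dotted). Incenp straddles the threshold, Bub1 has 1 alternative and Ttk has 2 far to the right, and Bub3 and Mad1l1 stay near the median of all genes.

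Seen against genes of like signal, the 8 genes lay at the low end of each signal class that held them. In the brightest of 10 equal classes of mean signal, with 1192 genes, Mad2l1 had rank 3, Cdc20 rank 6 and Incenp rank 16 from the lowest ratio, and Bub3 rank 499. In class 6, of 1191 genes, Aurkb had rank 2 and Bub1 rank 4. Ttk had rank 8 in class 4, Birc5 rank 10 in class 9 and Bub1b rank 19 in class 8. Mad1l1 had rank 467 of 1192 in class 3. The ranks use the same ratios by which the 8 genes were set apart, so a low rank was to be had from that choice and is no further support. They describe the pair of arrays.

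**Figure D3:**
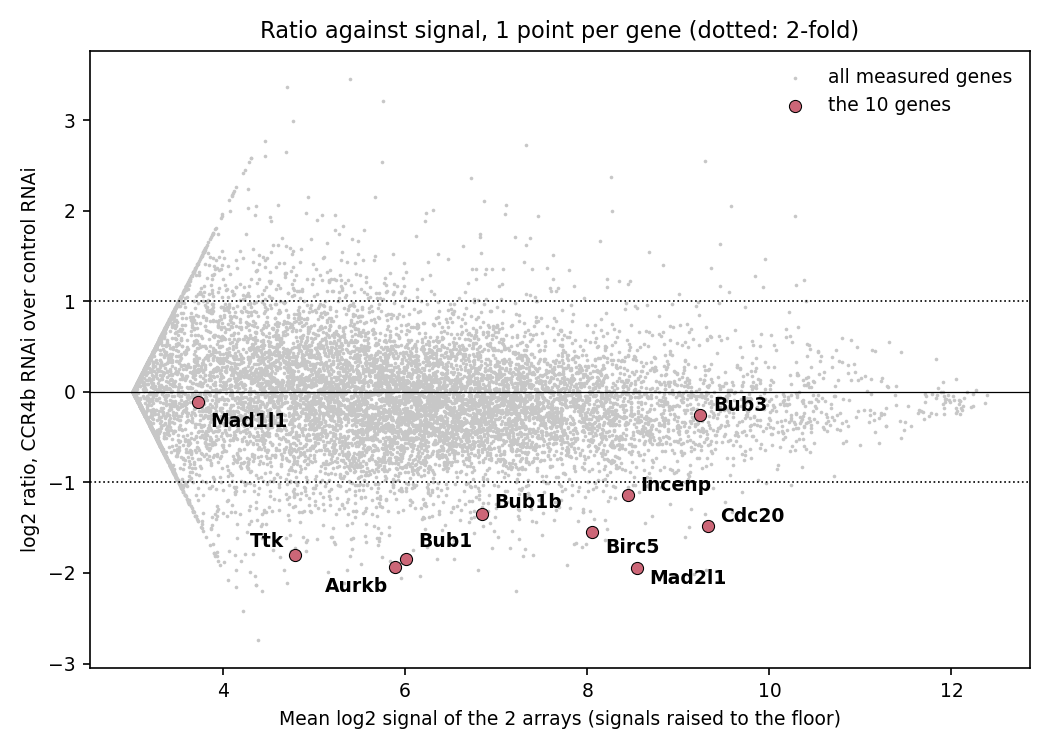
Log2 ratio of CCR4b RNAi over control RNAi against the mean log2 signal of the 2 arrays, 1 point per measured gene (grey, 11915 genes), with the 10 genes in red and 2-fold marked by dotted lines. The 8 lower genes lie toward the lower edge of the grey cloud, from dim (Ttk) to bright (Cdc20) signals, and Bub3 and Mad1l1 lie well inside it. The straight edges at the left come from values raised to the floor.

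Promoter sequences were set beside these values because 8 of the genes were lower together. Many genes of G2 and mitosis are known to be held down outside those phases through a promoter element called the cell cycle genes homology region (CHR), often near CCAAT boxes. RefSeq promoter windows (build GRCm38.p6, 250 bases before to 50 after each annotated start) matched 8 of the 10 genes in 10 windows, all but Aurkb and Incenp. The 100 bases before the start are shown for 3 genes that were over 2-fold lower and for Bub3, which was not, with CHR letters (TTTGAA or TTTAAA) and CCAAT boxes on either strand in capitals. They are Cdc20 (chr4:118437344-118437443, minus strand), Bub1 (chr2:127831860-127831959, minus strand), Mad2l1 (chr6:66535121-66535220, plus strand) and Bub3 (chr7:131560270-131560369, plus strand), each 5' to 3' in the direction of the gene.
Cdc20: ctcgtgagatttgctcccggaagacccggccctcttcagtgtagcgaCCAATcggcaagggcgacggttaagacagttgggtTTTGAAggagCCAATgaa
Bub1: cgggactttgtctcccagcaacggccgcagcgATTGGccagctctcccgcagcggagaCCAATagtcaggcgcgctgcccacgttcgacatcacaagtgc
Mad2l1: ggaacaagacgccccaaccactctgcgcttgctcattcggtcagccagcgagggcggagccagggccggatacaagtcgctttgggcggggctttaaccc
Bub3: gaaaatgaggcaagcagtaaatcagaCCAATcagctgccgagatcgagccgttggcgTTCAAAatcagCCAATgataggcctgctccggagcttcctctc

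Cdc20 has CHR letters 18 bases before the start and CCAAT boxes at 53 and 8 bases, counted to the first base of each match. Bub1 has a pair of CCAAT boxes, in opposite directions, at 68 and 42 bases. Mad2l1 holds none of these letters in its whole window. Bub3, with the small difference between the cultures, holds CHR letters on the reverse strand at 43 bases, between CCAAT boxes at 74 and 32 bases. Of the genes shown, Cdc20 and Bub1, both over 2-fold lower, held CHR letters or CCAAT boxes, and so did Bub3, which was not 2-fold lower. Mad2l1, with the lowest log2 ratio, held neither. Whether these letters bear on the ratios was not tested.

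Over the 8 genes with a window, CHR letters were found in at least 1 window of 5 (Birc5, Bub1b, Bub3, Cdc20 and Ttk) and CCAAT in 5 (Bub1, Bub1b, Bub3, Cdc20 and Ttk). Mad2l1, which was over 2-fold lower, and Mad1l1, which was not, held neither. Of all 32851 promoter windows, 27.6% hold the CHR letters, 37.4% CCAAT and 10.7% both. Counted in the same way, per window, 6, 6 and 5 of the 10 member windows do, and both windows of Bub3 share their matches. The CHR match in Birc5 lies far from the start, at 220 bases before it, and the CHR matches in Bub1b and Ttk lie 41 and 8 bases after the annotated start. E2F-type letters (TTTGGCGC, TTTCCCGC, TTTCGCGC or TTTGCCGC; 2.26% of all windows) and TATAAA (13.6%) were in 0 of the 10 windows. Both strands were searched, TTTAAA is its own reverse complement, and none of these motifs contains another. A match is a description of the sequence, and no binding was measured.

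The 5 companion lists of the same machinery, also chosen with earlier results of these data known, were described with the same rule. They are the kinetochore scaffold and checkpoint partners, the passenger complex partners with the central spindle, the APC/C core, the APC/C coactivator with its E2 enzymes, inhibitor and substrates, and the phosphatases that oppose the mitotic kinases. In this order 9 of 23, 11 of 16, 0 of 14, 8 of 10 and 0 of 13 measured genes were at least 2-fold lower, beside the 4.48% of all genes, and in each list 0 were 2-fold higher. The median log2 ratios were -0.88, -1.22, -0.11, -1.18 and -0.21. The APC/C core median turned to 0.045 with quantile normalization and 0.058 with a loess correction.

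Among the kinetochore scaffold and checkpoint partners, Ska1, a subunit of the microtubule-coupling SKA complex, had the lowest ratio, at 83.7 and 19.4 units (log2 ratio -2.11). Trip13, the ATPase that takes MAD2 out of the checkpoint complex, read 109 and 29.8 units, 3.66-fold lower. Kntc1, the ROD subunit of the complex that brings MAD1 and MAD2 to kinetochores, was 3.06-fold lower. Mad2l1bp encodes the adaptor with which TRIP13 acts on MAD2, and it read 69.8 units on both arrays. That adaptor was outside the naming rule and was picked after its value was seen. Zwint had the highest ratio on its brightest probe set, 1.07-fold higher at 598 and 640 units, but a log2 ratio of -1.49 on another (175 and 62.5 units). Pmf1 and Nsl1, subunits of the MIS12 complex, passed below the floor and were at least 3.42-fold and 1.58-fold lower on the probe sets that stood for them. The other Nsl1 probe set ran the opposite way, from 0.926 units to 10.2 units, so the direction of Nsl1 is not settled.

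Around the passenger complex, Aurka, the spindle pole paralog of Aurora B, read 176 units in the control and 48.9 units after CCR4b RNAi, 3.61-fold lower. Kif20a, the kinesin that carries the complex to the central spindle, was 3.20-fold lower, close to Cdca8 at 3.17-fold. Rcc2 had the highest ratio of this list above the floor, 1.28-fold lower on the probe set that stood for it, but its other probe set read 102 and 31.7 units. Aurkc, the third Aurora kinase, known mainly from germ cells, read 6.20 and 8.57 units, at the floor.

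For the core of the ligase that the checkpoint restrains, the count was near that of the whole array. None of the 14 core APC/C subunits was 2-fold lower on the probe set that stood for it, beside 4.48% of all measured genes. Anapc15 was 2.25-fold lower on its next probe set (57.9 and 25.7 units). Cdc23 and Anapc15 had the lowest ratios, 1.63-fold and 1.54-fold lower, then Cdc26 at 1.35-fold, and Anapc1 the highest, 1.14-fold higher. The next Cdc26 probe set had a log2 ratio of 0.12, and the dimmest measured one crossed the floor upward. The E2 enzyme Ube2c, which works with the APC/C, read 501 and 176 units, 2.85-fold lower. Gmnn (geminin) and Ccna2 (cyclin A), which the APC/C marks for degradation, were 2.78-fold and 2.67-fold lower. Fzr1, which encodes CDH1, the coactivator that replaces CDC20 after anaphase, read 52.1 and 46.8 units. Cdc20 and Fzr1 thus had log2 ratios of -1.48 and -0.16.

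On the probe set that stood for each gene, 0 of the 13 phosphatase genes were 2-fold lower or higher. Of all measured genes 4.48% were 2-fold lower and 3.74% higher, so for 13 genes these counts are near the whole array. Ppp2r5d, Ppp2r1b and Ppp2r5c, subunits of protein phosphatase PP2A, had the lowest log2 ratios above the floor (-0.48, -0.42 and -0.42) and Ppp2r2a the highest (0.47). The probe sets of Ppp2r5c disagreed in direction, and 3 of its 7 were over 2-fold higher, the brightest of these from 68.0 to 165.9 units (log2 ratio 1.29), so no direction is given for this gene. Ppp2r5b passed from 10.5 units to below the floor. Tpr and Ccnb1, also listed, have no probe set of their own in the annotation used and were not analysed here.

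**Figure D4:**
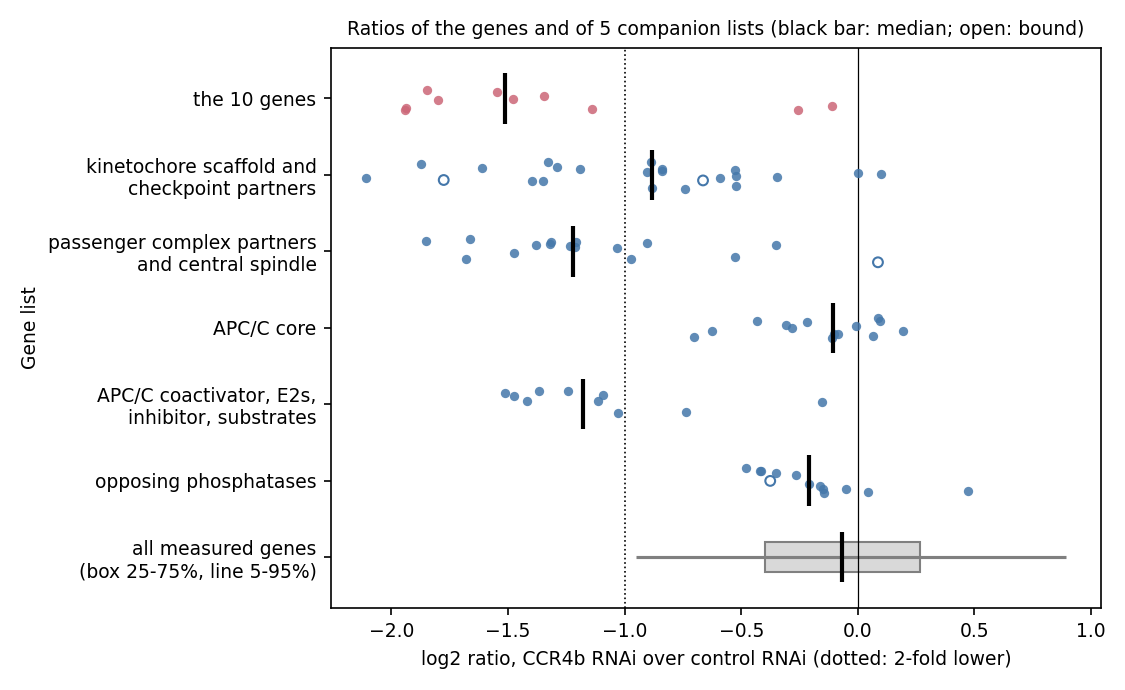
Log2 ratio of CCR4b RNAi over control RNAi for each measured gene of the 10 and of the 5 companion lists (points; open, bounds against the floor; black bars, medians), with the box from the 25th to the 75th and the line from the 5th to the 95th percentile of all measured genes at the bottom. The 10 genes, the passenger complex partners and the APC/C coactivator list have medians beyond the dotted 2-fold line, and the APC/C core and the phosphatases lie inside the line from the 5th to the 95th percentile.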

How the data were processed

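Per the labels, total RNA of 1 control RNAi and 1 CCR4b RNAi culture was hybridised to 1 array each. The authors computed linear probe-set intensities in GCOS with a global normalization, per the series design text and the submitters' processing notes, and deposited these. The sources used here do not give the version, the target value or detection calls. Genes were named through the platform annotation (34958 probe sets with 1 symbol, 932 with several, 9211 not listed), with symbols updated through the GRCm38.p6 RefSeq table. Signals were raised to the floor of 8.07 units (50th percentile of both arrays), and log2 ratios were taken of CCR4b RNAi over control RNAi. A gene was represented by its brightest probe set (mean log2 signal of both arrays) and counted as measured if at least 1 array reached the floor on it. A ratio with 1 value below the floor is a bound. Upper quartiles were 35.9 and 35.8 units; the number of arrays limits the precision.

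The text names the 10 genes, Cnot6l, and from each companion list the 3 lowest ratios and the highest above the floor on both arrays, plus bounds. Members and lists were chosen with earlier results of these data known. Python 3.11.15, pandas 2.3.3 and statsmodels 0.14.6 were used. The arithmetic was checked on simulated data with set ratios in bright genes, which tests neither values near the floor nor variation between cultures. The 8 alternatives concerned scaling, the floor and the choice of probe set.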

Additional observations from a re-analysis of the deposited data

How the results depend on the processing

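The 8 alternatives were a 25th percentile floor, a 75th percentile floor, log2 of signal plus 1 without a floor, division of each array by its median, loess correction by signal (span 0.3), quantile normalization, the median ratio over the measured probe sets of each gene, and removal of _x_at and _s_at probe sets. The number of the 10 genes at least 2-fold lower was 8, and 7 with quantile normalization, the loess correction, the 75th percentile floor, the median over probe sets and the removal of _x_at and _s_at probe sets. That removal leaves Aurkb without a value, and the 75th percentile floor leaves Mad1l1 without one. The median log2 ratio of the 10 genes lay between -1.61 and -1.31. Each gene stayed lower under every alternative that gave it a value. Ttk had -0.53 with the 75th percentile floor, where its CCR4b RNAi value is raised to 35.8 units, and -1.14 with the median over its probe sets. Bub1 had -0.74 with that median, which takes in its dim second probe set.

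The count of all measured genes at least 2-fold lower was 534 of 11915. It became 1791 of 16254 with the 25th percentile floor and 265 of 7284 with the 75th percentile floor. With no floor it was 924 of 11915. The 25th and 75th percentile floors thus changed the number of measured genes as well as the count. The kinetochore list had 5 genes at least 2-fold lower in place of 9 with the 75th percentile floor, which leaves 19 of its 23 genes measured. The median log2 ratio of all genes lay between -0.16, with division by the median, and -0.0049, with the loess correction. No paired analysis was possible because each group holds 1 array.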

Other observations

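Some companions of these genes had probe sets that disagreed by more than the spread between probe sets of a gene. Zwint, which encodes a protein that ties the RZZ complex to the kinetochore scaffold, read 598 and 640 units (control and CCR4b RNAi) and 271 and 277 units on a pair of probe sets, but 272 and 154 units and 175 and 62.5 units on another pair, so it looks equal between the cultures on some and 2.81-fold lower on the last. Rcc2, a passenger protein of centromeres and the midzone, had log2 ratios of -0.35 and -1.69 on its 2 probe sets. Anapc15, the APC/C subunit known for turning over the mitotic checkpoint complex, differed 1.54-fold on the brightest of its probe sets and 2.25-fold (57.9 and 25.7 units) on the next, lower on both. Ppp2r5c, a PP2A subunit, ran from a log2 ratio of -0.51 to 1.29 among its probe sets above the floor on both cultures' arrays. Cdc26, an APC/C subunit, had -0.43 and 0.12. These values were singled out after they were seen. Probe sequences and positions were not analysed here.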
